A study of Mus musculus with 9 samples.

Results

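The 10 cytokine genes Il1a, Il1b, Il1rn, Tnf, Il6, Il12a, Il12b, Il23a, Il10 and Il15 were followed in dendritic cells (DCs) sorted from mouse spleen, in knockout DCs without C/EBPβ and in control DCs. They were taken by symbol as probes annotated with exactly 1 of these names, and each of the 10 was read by 1 probe, among 22180 genes tested. The 3 knockout samples (C/EBPβ-/-) came from mice in which the CD11c promoter drives a Cre recombinase onto a loxP-flanked Cebpb gene (CD11c.Cre x C/EBPβflox/flox). The 6 control samples (C/EBPβ+/+) came from C57BL/6 or CD11c.Cre mice, and the labels do not say which control came from which. The groups may therefore differ in Cre as well as in Cebpb, and these cannot be told apart here. All 9 samples are labelled C57BL/6 in background and naive, that is without lymphoma transfer, and the sources used here give no age. The sort took cells positive for CD11c and for MHC class II. A CD11c-driven Cre also acts in other cells that use this promoter, some splenic macrophages among them, so the deletion may reach beyond DCs. The labels do not state that each replicate is a separate animal, so a p-value here reflects only how far these samples differ, which may be technical variation.

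C/EBPβ, a transcription factor of the basic leucine zipper class, was first described as a nuclear factor for the interleukin-6 promoter, and it binds the promoters of several inflammatory cytokines in stimulated myeloid cells. Activated DCs use these cytokines to instruct lymphocytes. Interleukin-1α and interleukin-1β signal through one receptor, which the antagonist encoded by Il1rn blocks. The subunit encoded by Il12b pairs with that of Il12a to form interleukin-12 and with that of Il23a to form interleukin-23, while interleukin-10 restrains inflammatory cytokine production, and interleukin-15, presented by its own receptor chain, maintains natural killer cells and memory CD8 T cells.

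Promoter sequences were available for 7 of the 10 genes, not for Il10, Il15 and Il23a. They are shown for 4 genes, for Il1a and Il1rn because their values separated the genotypes most clearly, and for Il1b and Il6 because these are classical C/EBPβ targets. Each runs 5′ to 3′ from 250 bases before to 50 bases after a transcription start, on the gene's own strand (RefSeq, GRCm38.p6). Capitals mark matches, on either strand, to TTNNGNAA, a core of the C/EBP recognition sequence, or to the NF-kB consensus.
Il1a, chromosome 2, minus strand, chr2:129309923-129310222: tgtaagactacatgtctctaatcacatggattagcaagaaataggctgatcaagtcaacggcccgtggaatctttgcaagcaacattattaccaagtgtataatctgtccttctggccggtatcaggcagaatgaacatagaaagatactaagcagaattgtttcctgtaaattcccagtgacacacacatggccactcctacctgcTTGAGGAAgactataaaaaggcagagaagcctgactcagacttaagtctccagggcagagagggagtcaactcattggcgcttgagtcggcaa
Il1b, chromosome 2, minus strand, chr2:129371090-129371389: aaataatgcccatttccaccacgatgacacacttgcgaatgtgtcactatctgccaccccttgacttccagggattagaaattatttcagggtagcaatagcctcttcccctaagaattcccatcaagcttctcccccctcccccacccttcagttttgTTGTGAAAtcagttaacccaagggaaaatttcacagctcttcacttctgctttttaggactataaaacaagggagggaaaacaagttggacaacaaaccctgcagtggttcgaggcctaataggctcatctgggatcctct
Il1rn, chromosome 2, plus strand, the most downstream of 3 starts, chr2:24345121-24345420: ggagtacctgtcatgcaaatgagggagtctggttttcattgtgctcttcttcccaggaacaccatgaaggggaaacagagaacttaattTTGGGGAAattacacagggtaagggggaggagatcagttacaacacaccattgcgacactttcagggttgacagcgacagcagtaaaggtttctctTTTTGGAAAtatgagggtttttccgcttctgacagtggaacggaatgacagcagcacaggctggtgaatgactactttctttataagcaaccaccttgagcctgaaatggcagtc
Il6, chromosome 5, plus strand, chr5:30012864-30013163: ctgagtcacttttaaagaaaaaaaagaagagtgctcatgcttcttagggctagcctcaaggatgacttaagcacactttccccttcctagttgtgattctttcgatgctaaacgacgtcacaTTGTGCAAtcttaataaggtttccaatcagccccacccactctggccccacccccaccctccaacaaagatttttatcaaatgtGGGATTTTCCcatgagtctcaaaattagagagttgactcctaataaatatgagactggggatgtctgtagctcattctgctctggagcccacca
The window of Il6 held 1 C/EBP core, at positions -128 to -121 counted from the start, and 1 NF-kB match at positions -44 to -35. The windows of Il1a and Il1b held 1 C/EBP core each. That of Il1rn held 3, of which 2 overlap each other, and the most upstream Il1rn start held none. Tnf, not shown, had 2 cores on the opposite strand, and Il12a and Il12b had none. Of 32851 promoter windows of the same length, 40.7% held TTNNGNAA, 13.6% held it at 2 or more positions, and 4.51% held the NF-kB consensus. Of the 10 windows of these 7 genes, 6 held TTNNGNAA. No match overlapped one of the other motif in the windows of these genes. A match is a run of letters and not a measured binding site.

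Values are log2 intensities, normalized across arrays by the authors, and a difference is knockout minus control on this scale. Cebpb, the deleted gene, measured 5.37, 5.60 and 5.42 in the 3 knockout samples, against 6.64, 6.77 and 7.15 as the lowest, median and highest control. It fell by 1.35 (SE 0.11, limma's adjusted p = 0.00074), so the labels match the deletion. Array medians lay between 5.49 and 5.56, and 2 arrays correlated at 0.987 to 0.996 across probes. DC genes were bright in both groups: H2-Ab1 averaged 13.7 in knockout and 13.7 in control samples, Itgax 12.2 in both and Flt3 11.6 and 11.5.

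None of the 10 cytokines had a lower mean in DCs without C/EBPβ. All 10 had a higher mean in the knockout than in the control samples, where 45% of the genes tested did, and their median difference was 0.32 against -0.014 over all genes. Only Il1rn passed the test, with Benjamini-Hochberg adjustment over all genes, and it did so narrowly: 1 of 10 rose and 0 fell, beside 0.906% of all genes past the threshold of 0.05 in either direction and 0.415% past it upward. The count over all genes depended on single samples (33 to 332 of 22180 when 1 sample was left out). At an unadjusted p under 0.05, 6 of the 10 were higher and 0 lower, beside 14.3% of all genes in either direction and 5.5% upward. In Il1a, Il1rn and Il15 each knockout value lay above every control value, as in 2.52% of all genes, and in 0 of the 10 did they all lie below, as in 4.88% of all genes. The genes were proposed with results of these data known, so their joint direction is a description.

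**Figure D1:**
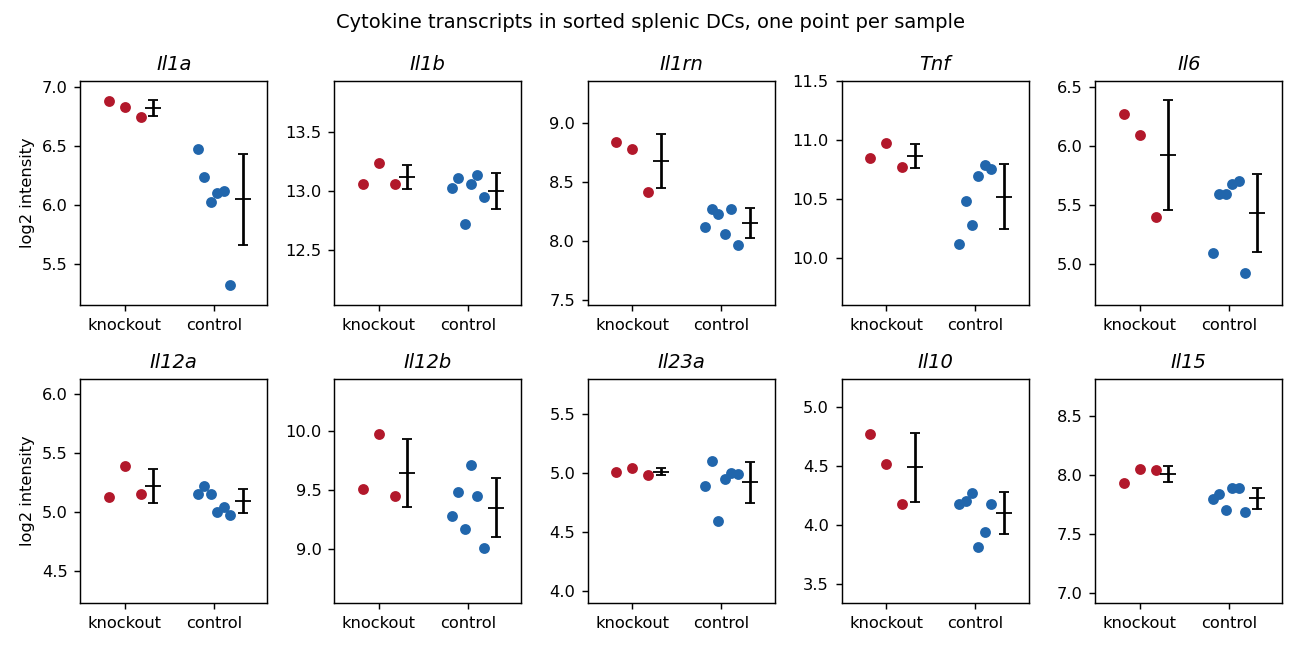
Log2 intensity of the 10 cytokines, with knockout samples (3, red) left of control samples (6, blue), 1 point per sample, and black bars for mean ± SD; every panel spans the same height on the log2 axis. The knockout points lie above all control points in Il1a, Il1rn and Il15 and overlap them in the other 7 genes.

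The interleukin-1 genes held the clearest separation, in the antagonist and in Il1a but not in Il1b. Il1rn measured 8.84, 8.78 and 8.42 in the knockout samples, against 7.97, 8.18 and 8.27 as the lowest, median and highest control. The groups did not overlap, although the third knockout sample lay only a little above the highest control. Il1rn averaged 8.68 ± 0.23 (SD, n = 3) in knockout and 8.15 ± 0.12 (SD, n = 6) in control samples, a 1.44-fold rise. On the log2 scale the rise was 0.52 with an SE of 0.10, a 95% confidence interval of 0.29 to 0.75 and limma's adjusted p = 0.048. Permuting the genotypes gave an exact two-sided p of 0.012, the smallest that the 84 splits of 9 samples into 3 and 6 can give. The call was lost without any 1 of the 6 controls and without knockout replicate 1 or 2 (differences of 0.44 to 0.55, adjusted p = 0.061 to 0.18), and held without knockout replicate 3 (0.66, adjusted p = 0.016).

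Il1a encodes the membrane-associated and alarmin form of interleukin-1. It measured 6.88, 6.83 and 6.74 in the knockout samples, against 5.32, 6.11 and 6.47 as the lowest, median and highest control. The knockout samples were close together above a wide control group, in which replicate 6 stood lowest. Whether the value of that control was above background was not measured. The 1.71-fold difference, 0.77 on the log2 scale (SE 0.19, 95% confidence interval 0.34 to 1.20), was the largest of the 10 and did not pass after adjustment (limma's adjusted p = 0.094, exact permutation p = 0.012). It passed without control replicate 6, with a difference of 0.63 (adjusted p = 0.046). The control SD of Il1a, 0.39, was larger than that of 99.0% of the genes tested, whose median was 0.12.

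Il1b, the secreted inflammatory form and a classical C/EBPβ target, was bright in every sample. Its values were 13.06, 13.24 and 13.06 in the knockout samples, against 12.72, 13.04 and 13.13 as the lowest, median and highest control, where the highest value of any probe on the 9 arrays was 13.87. The groups overlapped, with 1 of 3 knockout samples above all controls. The difference was 0.12 (SE 0.09, limma's adjusted p = 0.61), and its 95% confidence interval, -0.081 to 0.32, spans 0.945-fold to 1.25-fold. The difference was 0.062 without knockout replicate 2 and 0.067 without control replicate 3. Values near the top of the scale can be compressed, and whether that understated the change of Il1b was not tested. Il1a and Il1b are neighbours on chromosome 2 with no protein-coding gene between them in RefSeq, and Cebpb lies on the same chromosome with 429 protein-coding genes between it and Il1b.

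Tnf encodes tumour necrosis factor, a promoter of inflammation and DC maturation. It measured 10.85, 10.98 and 10.77 in the knockout samples, against 10.13, 10.59 and 10.79 as the lowest, median and highest control. The knockout samples sat at the upper edge of a broad control group, with 2 of 3 above all controls and 5 of 6 controls below all knockout samples. The difference was 0.34 (SE 0.14, limma's adjusted p = 0.31, unadjusted p = 0.036, exact permutation p = 0.083). Ltb, the neighbouring gene for the lymphotoxin subunit that takes part in building lymphoid tissue, went the other way. It averaged 10.6 in knockout and 11.0 in control samples and fell by 0.40 (SE 0.08, limma's adjusted p = 0.048). Lta, the neighbour on the other side of Tnf, averaged 6.74 in knockout and 6.76 in control samples, a gene chosen after its values were seen.

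Il6, whose product drives acute-phase and T helper 17 responses, had no lower mean without C/EBPβ. Its values were 6.28, 6.10 and 5.40 in the knockout samples, against 4.93, 5.59 and 5.71 as the lowest, median and highest control. The first 2 knockout samples lay above all controls and knockout replicate 3 below their median. The difference was 0.49 with a wide error (SE 0.22, 95% confidence interval 0.0082 to 0.98, limma's adjusted p = 0.34, exact permutation p = 0.12). Without knockout replicate 1 it was 0.32, and without knockout replicate 3 it was 0.75 (adjusted p = 0.15).

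The subunit genes of interleukin-12 and interleukin-23 did not pass. Il12b, the shared subunit, measured 9.51, 9.97 and 9.44 in the knockout samples, against 9.01, 9.36 and 9.71 as the lowest, median and highest control. Only knockout replicate 2 lay above the controls, and the difference was 0.29 (SE 0.16, limma's adjusted p = 0.44), or 0.13 without that sample. Il12a measured 5.12, 5.38 and 5.15 in the knockout samples, against 4.97, 5.10 and 5.22 as the lowest, median and highest control. Again replicate 2 was the 1 knockout sample above all controls. Its difference was 0.13 (95% confidence interval -0.048 to 0.31, limma's adjusted p = 0.52), or 0.047 without knockout replicate 2. Il23a measured 5.01, 5.04 and 4.98 in the knockout samples, within the control range of 4.59 to 5.10. Its difference was 0.091 (95% confidence interval -0.12 to 0.31, limma's adjusted p = 0.74), the smallest of the 10, and 0.025 without control replicate 3.

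Il10, the main anti-inflammatory member, measured 4.76, 4.51 and 4.18 in the knockout samples, against 3.81, 4.18 and 4.27 as the lowest, median and highest control. Knockout replicates 1 and 2 lay above all controls and replicate 3 at their median. The difference was 0.39 (SE 0.13, limma's adjusted p = 0.21, unadjusted p = 0.014, exact permutation p = 0.060), and 0.25 without knockout replicate 1. Detection calls were not used here. For scale, the probes of 12 cytokines typical of lymphocytes averaged between 2.20 (Il22) and 5.83 (Il13). The control values of Il6, at 4.93 to 5.71, also lay in this range, as did Il1a in control replicate 6 (5.32). Whether Il6, Il10, Il12a and Il23a, and Il1a in that control, were above background was not measured. Probes respond unequally, so these values do not order the transcripts by amount, and RMA compresses changes of dim probes.

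Il15 showed a small difference with little spread. It measured 7.94, 8.05 and 8.05 in the knockout samples, against 7.69, 7.83 and 7.89 as the lowest, median and highest control, so the groups did not overlap. The difference was 0.21 (SE 0.07, 95% confidence interval 0.061 to 0.35, limma's adjusted p = 0.18, exact permutation p = 0.024). Il15ra, the chain that presents interleukin-15 to other cells and a gene chosen after its values were seen, measured 7.98, 8.03 and 8.13 in the knockout samples, all above its highest control at 7.84. Its difference was 0.41 (SE 0.10, limma's adjusted p = 0.086).

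**Figure D2:**
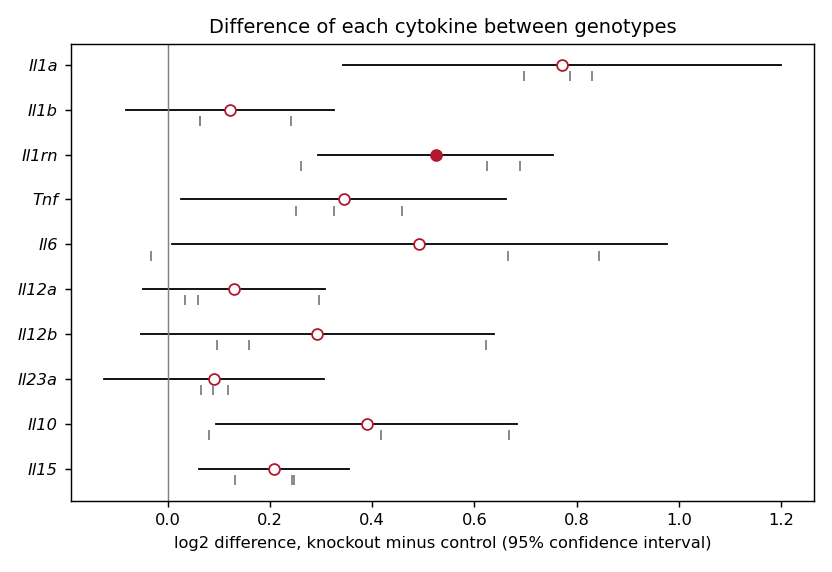
Log2 difference, knockout minus control, of each cytokine (circle) with limma's 95% confidence interval, not adjusted for the number of genes (line), and the 3 knockout samples relative to the control mean (grey ticks); the filled circle marks an adjusted p under 0.05. All 10 circles lie right of 0, from 0.091 (Il23a) to 0.77 (Il1a), and Il1rn alone is filled.

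The samples differed in how far the whole group of cytokines stood from the control mean. Over the 10 genes the median deviation in the knockout samples was 0.24 for replicate 1, 0.44 for replicate 2 and 0.089 for replicate 3, against a control range of -0.12 to 0.12. Knockout replicate 3 thus lay within the control range by this median, and 9 of its 10 genes were above their control mean, as in control replicate 2. Knockout replicates 1 and 2 had 10 of 10 above. Control replicate 6 was the lowest control in Il1a, Il1rn, Il6, Il12a, Il12b and Il15, while its Tnf (10.76) was the second highest control value.

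Among 107 measured genes of 6 pathway lists, with receptors, processing enzymes and signalling genes, 2 rose and 1 fell. Of all genes, 0.415% passed 0.05 upward and 0.491% downward after adjustment. At an unadjusted p under 0.05 with limma, 5.5% of all genes were higher, and 14.3% differed in either direction. Of 22 measured interleukin-1 family and inflammasome genes 0 passed with limma after adjustment, 4 being higher and 2 lower at an unadjusted p under 0.05, and the median difference was 0.013. Irak3, an inhibitor of interleukin-1 and Toll-like receptor signalling, had the smallest p (difference 0.47, adjusted p = 0.080), followed by Irak2 (0.27, adjusted p = 0.11), a kinase of the same pathway. Casp1, which cleaves the interleukin-1β precursor, averaged 10.1 in both genotypes (chosen after its values were seen). Of 20 partners of the interleukin-6, interleukin-10 and interleukin-12 families 0 passed with limma, 4 being higher and 0 lower at an unadjusted p under 0.05, with a median of 0.052. The 2 with the smallest p were Lif (0.34, adjusted p = 0.12), a cytokine of the interleukin-6 family, and Il10rb (0.14, adjusted p = 0.28), a chain of the interleukin-10 receptor.

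Of 8 measured genes of interleukin-15 and common gamma chain signalling, 5 were higher and 0 lower with limma at an unadjusted p under 0.05. The median difference was 0.30. After adjustment 1 rose and 0 fell. It was Il7r, the interleukin-7 receptor chain, which measured 8.68, 8.45 and 8.35 in the knockout samples, against 7.59, 7.78 and 7.94 as the lowest, median and highest control. It rose by 0.71 (SE 0.09, limma's adjusted p = 0.0086), and stayed past 0.05 in each fit without 1 sample (adjusted p = 0.012 to 0.049). Of 14 genes around tumour necrosis factor 0 rose and 1, Ltb, fell, with a median of 0.095 and a call that was lost in each of the 9 fits without 1 sample (-0.42 to -0.37, adjusted p = 0.056 to 0.15). At an unadjusted p under 0.05, 5 of the 14 were higher and 1 lower. Of 31 measured regulators of cytokine transcription and messenger RNA decay, 8 were higher and 1 lower at an unadjusted p under 0.05. Their median difference was 0.12. After adjustment 1 rose and 0 fell. It was Maf, a transcription factor that drives Il10 in several immune cells and is high in macrophages. Maf averaged 7.09 in knockout and 6.42 in control samples, a rise of 0.66 (SE 0.13, limma's adjusted p = 0.048). Its call held without control replicate 2 (0.73, adjusted p = 0.024) and was lost without any 1 of the other 8 samples (0.58 to 0.71, adjusted p = 0.063 to 0.15). With the mean of its probes in place of the brightest it was lost too (0.57, adjusted p = 0.081). Of the 12 lymphocyte cytokines 0 passed with limma, with 0 at an unadjusted p under 0.05 and a median of 0.061. Il4 (0.14) and Il17f (0.11) had the smallest p of these.

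**Figure D3:**
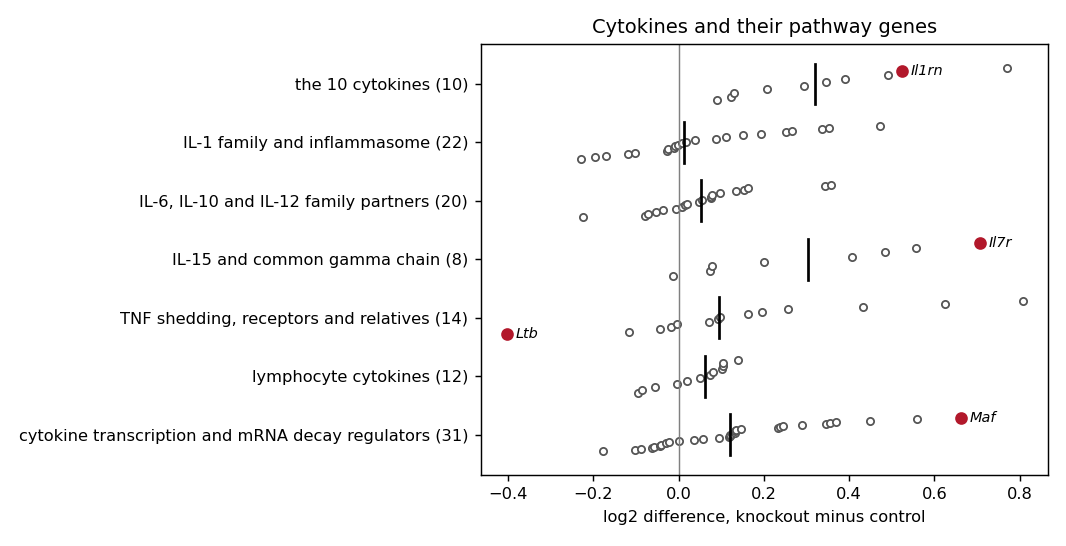
Log2 difference, knockout minus control, of each measured gene in the cytokine group and in 6 pathway lists (number of genes in brackets), with black bars for list medians and filled, named points for an adjusted p under 0.05. The medians of the 10 cytokines (0.32) and of the interleukin-15 and common gamma chain list (0.30) lie farthest right, and Ltb is the 1 filled point left of 0.

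Markers of macrophages and monocytes, cells that also make many of these cytokines, were higher in the knockout samples as well. All 14 red pulp macrophage markers had a higher mean in the knockout, beside 45% of all genes. With limma 0 of 14 passed after adjustment, and 9 were higher at an unadjusted p under 0.05, beside 5.5% of all genes. The mean level of these markers was 8.90 to 9.41 in knockout and 8.07 to 9.22 in control samples, so the groups overlapped. Their median difference was 0.60, larger than the 0.32 of the cytokines, in a range of 0.036 (Cd5l) to 0.92 (Mrc1). The brightest of them, Slc11a1 and Adgre1, averaged 10.7 and 10.5 in knockout and 10.5 and 10.4 in control samples. Of 14 monocyte markers, 11 had a higher mean, and 6 were higher and 0 lower with limma at an unadjusted p under 0.05. After adjustment 1 passed (Ace, difference 1.16, adjusted p = 0.0096). The mean level of the monocyte list was 8.53 to 8.68 in knockout and 8.19 to 8.53 in control samples. Among the monocyte markers Nr4a1 and Lyz2 were brightest, at 12.9 and 11.8 in knockout and 12.8 and 11.6 in control samples. All 9 plasma cell markers had a higher mean, and 5 were higher and 0 lower at an unadjusted p under 0.05. After adjustment 2 of them rose, Jchain and Prdm1. The mean levels of the plasma cell list were 7.51 to 7.76 in knockout and 7.01 to 7.26 in control samples. In the 8 lists for DCs as a whole, cDC1, plasmacytoid DCs (pDC), neutrophils, B cells, T cells, NK cells and erythroid cells with platelets, 0 of 72 markers passed with limma, with 9 higher and 2 lower at an unadjusted p under 0.05. Of 9 cDC2 markers 1 rose (Cd209a) and 1 fell (Dtx1), and 3 had a higher mean (median difference -0.12). Of 8 cDC1 markers 1 had a higher mean (median difference -0.081), and of 8 markers of DCs as a whole 5 did (0.038). No marker is at 0 on this scale, since dim probes keep a background value, and Vcan, at 3.61 in knockout and 3.71 in control samples, was the dimmest monocyte marker.

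Macrophage markers and cytokines were both highest in knockout replicate 2, although knockout replicate 3 was nearly level with it in the macrophage markers. For the red pulp macrophage list the median deviation was 0.30, 0.77 and 0.76 in knockout replicates 1, 2 and 3, against 0.14, 0.53, -0.58, -0.033, 0.10 and -0.28 in control replicates 1 to 6. For the 10 cytokines it was 0.24, 0.44 and 0.089 in the same knockout samples, against -0.016, 0.12, -0.058, 0.060, 0.091 and -0.12 in the same controls. Control replicate 2 was the highest control in both lists, and control replicates 3 and 6 were the 2 lowest in both. Knockout replicate 3 was high in the macrophage list and within the control range in the cytokines. Knockout replicate 1 lay below control replicate 2 in the macrophage list and above it in the cytokines. The part of macrophages or monocytes in the cytokine differences was not tested, and in sorted cells measured in bulk, more cells of a type and more RNA per cell cannot be told apart.

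**Figure D4:**
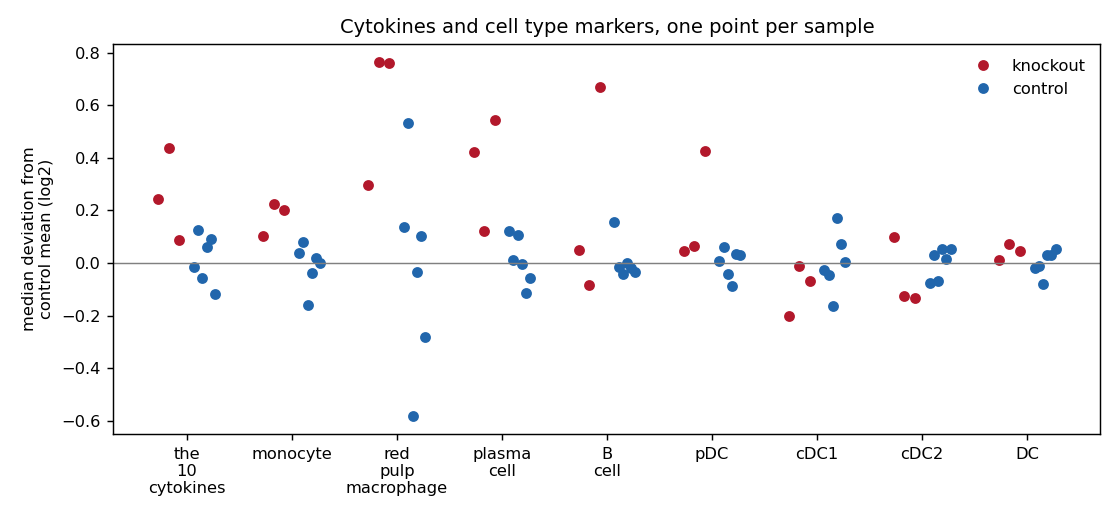
Median deviation from the control mean (log2) of the 10 cytokines and of 8 marker lists in each sample, knockout samples in red and control samples in blue. The red pulp macrophage markers reach 0.77 in the knockout and 0.53 in the controls, and knockout replicate 3 is the sample with the high B cell and pDC values. Plasma cell values are high in knockout replicates 1 (0.42) and 3 (0.55).

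The genes whose pattern over the 9 samples was most like that of Il1b were Ptpra, a receptor tyrosine phosphatase (Pearson r = 0.989), Pmaip1, which encodes the pro-apoptotic protein Noxa (r = 0.955), and Tbc1d9b (r = 0.953). Ptpra lies on chromosome 2 with 17 protein-coding genes between it and Il1b. The genes most like Tnf were the peptidase gene Lap3 (r = 0.962), Mfsd1 (r = 0.949) and Sec14l1 (r = 0.940). They are the top 3 of 18676 genes for each cytokine over 9 samples that share 1 normalization, and none of the 6 differed between the genotypes by limma (differences of 0.02 to 0.27).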

How the data were processed

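Total RNA of sorted splenic DCs was amplified, biotin-labelled with a whole-transcript kit and hybridised to 9 single-colour arrays, per the labels' protocols. Each deposited value is a log2 intensity of a probe, for which the submitters' processing notes name RMA, a method that corrects background, equalises array distributions by quantiles and summarises the oligonucleotides of a probe, with the version and genome build not given in the sources used here. Quantile normalization gives all arrays nearly one distribution, so a shift of most genes would have been removed before deposit. That the logarithm is to base 2 was judged from the range of the values.

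Of 41801 rows, 34468 had a value in every sample. The platform's annotation supplied symbols, probes with exactly 1 symbol entered with no minimum signal, and the brightest probe stood for a gene that had several, leaving 22180 genes. The genotypes were compared in R 4.3.3 with limma 3.58.1 (lmFit, eBayes, two-sided, no covariate), with Benjamini-Hochberg adjustment over all genes and a threshold of 0.05. For single cytokines an exact two-sided permutation p was taken over the 84 ways to place 3 knockout labels. The number of arrays limits the precision. Lists of 119 pathway genes in 6 groups (107 measured) and 128 cell type markers in 12 groups (118 measured) are described by counts and medians with no set test. Named genes were those past 0.05 of each pathway list, otherwise the 2 with the smallest p, the brightest and dimmest lymphocyte cytokine, the 3 most like Il1b and Tnf by Pearson's r, and markers with their lists, of which the brightest are given where a list moved. The cytokines and lists were chosen with earlier results of these data known.

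On simulated data with 22180 genes in 3 and 6 arrays, 37 of 67 genes were recovered where the log2 change was 0.5, 62 of 67 where it was 1 and 66 of 66 where it was 2, beside 9 unchanged genes called. Noise was drawn independently for each gene at its control SD, with no shift shared by a sample. These rates therefore need not hold for the real arrays or for genes with a large control SD. Alternatives were array centring, a second quantile normalization, trended and robust variance, a block for the replicate number, array weights (statmod 1.5.0), each sample left out, 2 signal filters, other probe summaries and a minimum change of 1.5-fold. Promoter windows came from RefSeq (GRCm38.p6), and the RefSeq gene table served only for names and gene order. Python 3.11.15 (pandas 2.3.3, matplotlib 3.10.9) served for motif searches and figures.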

Additional observations from a re-analysis of the deposited data

How the results depend on the processing

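All 10 cytokines kept a positive difference in each of the 175 alternative fits in which they were measured. The signal filter at the 25th percentile removed 1 of the cytokines and that at the median 4. Part of this count was fixed in advance. Each cytokine had 1 probe, so trended and robust variance, both filters and the other probe summaries returned its difference unchanged. The sign could change only in the remaining fits, which reuse the same arrays. The fall of Cebpb stayed past 0.05 except with the replicate number as a block (-1.47, limma's adjusted p = 0.14).
Il1rn missed 0.05 with array medians subtracted (0.52, adjusted p = 0.064), with the block (0.47, adjusted p = 0.43) and with all probes tested (0.52, adjusted p = 0.051), and over the fits without 1 sample it was 0.44 to 0.66. Il1a passed 0.05 with array weights (0.77, adjusted p = 0.043) and with the filter at the median (0.77, adjusted p = 0.045), and was 0.63 to 0.86 without 1 sample.
The number of cytokines past 0.05 was 0 with centring, with the block, with all probes and with a minimum change of 1.5-fold, 2 with array weights and with the filter at the median, and 0 to 1 without 1 sample, being 0 without knockout replicate 1 or 2 or control replicate 1, 2, 3, 4 or 5. Without control replicate 6 the 1 was Il1a and not Il1rn.
The number of genes past 0.05, 201, was 125 with centring, 652 with array weights, 2 with the block, 328 and 544 with the filters at the 25th percentile and the median, 83 with a minimum change of 1.5-fold, and 33 to 332 without 1 sample. It was 332 and 33 without knockout replicates 1 and 2, and 66, 73, 49, 64 and 60 without control replicates 1, 3, 4, 5 and 6. Of the 14 genes around tumour necrosis factor 1 passed in the main fit, 4 with array weights, 3 with the filter at the median and 0 with the block. The cause of these shifts was not tested, except that a minimum change or a filter alters the genes counted.
The replicate numbers did not visibly pair the samples. Deviations from the group means correlated at -0.14, -0.10 and 0.047 for pairs 1 to 3, and at -0.14 to 0.20 between unmatched replicates 1 to 3. Deviations from a mean of 3 samples are tied together, so these values cannot exclude pairing. Controls 4 to 6 have no partner, so the fit with the block rests on few degrees of freedom. Detection calls were not used here, so signal over background, which limits Il6, Il10, Il12a and Il23a most, is unknown. Other values moved by over 1.5 times with no change of call: with the block Tnf was 0.57, Il12a 0.044 and Il23a 0.15, and with array weights Il12a was 0.20. Il7r missed 0.05 with the block (0.69, adjusted p = 0.29), Maf with the block (0.61, adjusted p = 0.44), all probes (0.66, adjusted p = 0.051) and the mean of its probes, and Ltb with the block (-0.33, adjusted p = 0.43), all probes (-0.40, adjusted p = 0.051) and centring (-0.41, adjusted p = 0.069), beside the fits without 1 sample.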

Other observations

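Of 15 receptor chains for the 10 cytokines 14 were measured, and 0 passed with limma after adjustment. In the knockout samples 10 had a higher and 4 a lower mean, with a median difference of 0.096. The 4 were Il12rb2 (-0.22), Il1rap (-0.10), Il6ra (-0.071) and Il1r1 (-0.028), while Il12rb1 (0.0076) and Il6st (0.016) had means nearly equal to the controls. The other genes of this and the next paragraph were chosen after their values were seen. Il2ra, the high-affinity chain of the interleukin-2 receptor, measured 6.96, 7.48 and 7.07 in the knockout samples, all above its highest control at 6.79 (difference 0.56, limma's adjusted p = 0.069). Il2rb, the chain shared by interleukin-2 and interleukin-15, averaged 6.30 in knockout and 5.82 in control samples (difference 0.48, adjusted p = 0.13), and Tnfrsf1b, the second tumour necrosis factor receptor, averaged 11.0 in knockout and 10.6 in control samples (difference 0.43, adjusted p = 0.13). Tnfsf15, a relative of tumour necrosis factor, averaged 7.79 in knockout and 6.98 in control samples, the largest difference in its list (0.81, adjusted p = 0.053). Il1r2, the decoy receptor that binds interleukin-1, averaged 11.6 in knockout and 11.3 in control samples with overlapping groups (difference 0.34, adjusted p = 0.52).

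Among the 31 regulators of cytokine transcription and messenger RNA decay, genes other than Maf had differences of either sign, and none of them passed in the main fit. With array weights and with the filter at the median 3 of the 31 passed, Maf among them, and with the block 0 did. Atf3, a stress-induced repressor of cytokine genes, averaged 11.8 in knockout and 11.3 in control samples (difference 0.56, adjusted p = 0.053). Zfp36l2, which destabilises messenger RNAs, differed by 0.36 (adjusted p = 0.090) and Tnfaip3, the ubiquitin-editing inhibitor of NF-kB, by 0.37 (adjusted p = 0.13). Nfkbia, the NF-kB inhibitor IκBα, differed by 0.094 (adjusted p = 0.51), Dusp1, a phosphatase of MAP kinases, by 0.12 (adjusted p = 0.54) and Zfp36, which destabilises messenger RNAs, by 0.13 (adjusted p = 0.53). Il18 averaged 9.23 in knockout and 9.21 in control samples, a difference of 0.017 (adjusted p = 0.95).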
